A study of Mus musculus with 4 samples.

Results

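The genes described here are the Myc oncogenes and their dimerization partners, namely Myc, Mycn, Max, Mxi1, Mxd3 and Mnt, in mouse stem cell cultures measured on Affymetrix oligonucleotide arrays. Members were taken by the gene symbol of the platform annotation, which gave 6 of the 18193 genes measured and 12 probe sets. There were 4 arrays with 1 per group. They held germline stem (GS) cells with a Trp53 knockout, labelled ICR (a mouse strain), embryonic stem (ES) cells of the R1 line, multipotent germline stem (mGS) cells and GS cells. GS cells are spermatogonial stem cells kept in culture, and mGS cells are cells resembling ES cells that arise from them. Both GS cultures were grown in a StemPro-based GS medium and the ES and mGS cultures in a standard ES cell medium, so cell type and medium cannot be told apart. The labels used here name no strain for the GS, mGS and ES cultures, no passage and no number of donor animals. Between knockout and GS cells, genotype thus cannot be told apart from strain or culture line.

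Myc and Mycn are helix-loop-helix leucine zipper transcription factors that bind DNA only as dimers with Max, at E-box sequences such as CACGTG. Mxi1, Mxd3 and Mnt also dimerize with Max and bind the same sites, but recruit Sin3 corepressors, so that the Max partner decides between activation and repression. In mouse ES cells Myc proteins take part in self-renewal downstream of LIF and STAT3, and in cultured mouse spermatogonial stem cells Mycn has been placed downstream of the growth factor GDNF.

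Mycn was picked for its higher signal in ES medium. Max and Mnt were picked on their values, log2 differences of -0.76 for ES over mGS cells, both under 2-fold. For knockout over GS cells they differed, at 1.02 for Max and 0.10 for Mnt. The promoters of these 3 members are shown. They are RefSeq windows of 300 bases on GRCm38.p6, read 5′ to 3′ along the gene, from 250 bases before to 50 after the start site. Capitals mark the E-box CACGTG in Max and Mnt and the E2F-type element TTTGGCGC in Mycn, both searched on both strands.
Mycn, chr12:12941787-12942086, minus strand: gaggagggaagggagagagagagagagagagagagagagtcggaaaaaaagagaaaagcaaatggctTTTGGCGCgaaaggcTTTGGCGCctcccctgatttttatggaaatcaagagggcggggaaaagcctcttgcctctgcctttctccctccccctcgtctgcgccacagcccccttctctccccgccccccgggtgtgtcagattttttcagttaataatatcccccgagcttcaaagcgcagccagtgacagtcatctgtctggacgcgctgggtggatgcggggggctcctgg
Max, chr12:76962199-76962498, minus strand: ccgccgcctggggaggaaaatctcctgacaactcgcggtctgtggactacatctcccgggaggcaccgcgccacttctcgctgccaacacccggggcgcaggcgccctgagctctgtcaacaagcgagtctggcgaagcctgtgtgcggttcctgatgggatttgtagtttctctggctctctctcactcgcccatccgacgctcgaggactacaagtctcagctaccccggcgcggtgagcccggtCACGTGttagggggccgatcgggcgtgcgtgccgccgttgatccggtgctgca
Mnt, chr11:74830674-74830973, plus strand: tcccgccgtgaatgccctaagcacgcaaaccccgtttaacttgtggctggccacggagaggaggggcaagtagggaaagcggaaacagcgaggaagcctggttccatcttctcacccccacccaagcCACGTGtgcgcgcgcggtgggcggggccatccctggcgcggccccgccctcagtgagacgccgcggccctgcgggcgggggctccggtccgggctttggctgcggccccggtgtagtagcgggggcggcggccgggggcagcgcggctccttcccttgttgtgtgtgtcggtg
The E-box began 3 bases before the start site of Max and 123 bases before that of Mnt. It was present in 7.15% of all 32851 promoter windows. The Mycn window held TTTGGCGC at 183 and 168 bases before the start, 2 copies that do not overlap each other or an E-box, and 0.514% of all windows held this element. The windows of Mxd3 and Mxi1 held neither, and no window was available for Myc. These matches describe letters in the windows and no binding was measured.

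With 1 array in each group, differences have no replicate check and no p-value and are described by size. Signals are normalized intensities, with a floor at the array median of 82.7. A signal under the floor was raised to it before a difference was taken, and a difference against the floor is given as at least N-fold. A 2-fold difference was the threshold for counting. In place of a replicate error, the differences that separate probe sets of 1 gene gave in the same comparison had a standard deviation on the log2 scale of 0.49 for mGS over GS, 0.44 for ES over mGS, 0.60 for ES over GS and 0.48 for knockout over GS. That spread covers probes and not cultures. In bulk RNA a smaller share of expressing cells and less RNA per cell cannot be told apart.

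Summed signals of germ cell and pluripotent cell markers went with the labels. All 6 germ cell markers (Zbtb16, Gfra1, Ret, Ddx4, Dazl and Mov10l1) were above the floor in knockout and control GS cells, and the list's summed signal was 53718 in knockout GS cells, 1275 in ES cells and 1548 in mGS cells, against 51802 in GS cells. Above the floor were also 4 of the 6 in ES cells and 5 in mGS cells. Gfra1 and Ret were 2.39-fold and 2.83-fold lower in knockout GS cells than in GS cells, and none of the 6 was 2-fold higher there. The 6 pluripotent cell markers (Nanog, Tdgf1, Esrrb, Zfp42, Dppa5a and Fgf4) summed to 54100 in ES cells and 66349 in mGS cells, against 2616 in knockout GS cells and 3926 in GS cells. All 6 were above the floor in ES and mGS cells, and 3 were in knockout GS cells and 3 in GS cells. Zfp42 was 1.97-fold higher in ES cells than in GS cells, under 2-fold. The 8 fibroblast markers summed to 1766 in knockout GS cells, 26461 in ES cells, 1401 in mGS cells and 864 in GS cells, and all 8 were above the floor in ES cells against 5, 5 and 4 in knockout GS, mGS and GS cells. A poly-A RNA added before labelling, dap, read 3055 in knockout GS cells and 2545 in ES cells, against 255 in mGS cells and 271 in GS cells, so that ES over mGS, ES over GS and knockout over GS cross this division and mGS over GS does not.

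Myc was present on both arrays of ES medium and not above the floor on either array of GS medium. Its single probe set, 1424942_a_at on chromosome 15, read 12.8 in knockout GS cells, 1850 in ES cells, 1835 in mGS cells and 5.14 in GS cells. Both GS cultures thus lay far under the floor and both pluripotent cultures far above it, with no overlap. Of 12897 genes, 7.65% were at least 2-fold higher in all 4 pairs of an ES-medium with a GS-medium array. Myc was at least 22.2-fold higher in mGS cells than in GS cells, with 0.484% of genes as far or farther in that direction. In ES cells it was at least 22.4-fold higher than in GS cells, with 0.669% of genes as far or farther. The floor sets both bounds, which on the log2 scale were 4.47 for mGS and 4.48 for ES, against 3.58 and 3.59 with the floor at the 60th percentile. Between ES and mGS the log2 difference was 0.01, smaller than the spread between probe sets. Knockout and GS were both under the floor, so Myc gave no difference there. The part of fibroblast RNA in the Myc signal was not tested. One probe set measured Myc, so no other could check it.

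Mycn was above the floor on every array and higher in ES medium. Its leading probe set, 1417155_at on chromosome 12, read 2357 in knockout GS cells, 8569 in ES cells, 6200 in mGS cells and 2472 in GS cells. The lower of the ES-medium arrays was 2.51-fold above the higher of the GS-medium arrays. At least 2-fold higher in all 4 such pairs were 7.65% of 12897 genes. Mycn was 2.51-fold higher in mGS cells than in GS cells and 3.47-fold higher in ES cells than in GS cells. A difference as large in the same direction was found for 10.4% of genes in the mGS comparison and for 7.51% in the ES comparison. The log2 difference was 0.47 for ES over mGS, close to the spread between probe sets, and -0.07 for knockout over GS.

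The other Mycn probe sets did not all follow the leading one. 1425922_a_at read 286 in knockout GS cells, 1300.0 in ES cells, 1324 in mGS cells and 537 in GS cells. It thus gave 2.47-fold for mGS over GS and a log2 difference of -0.03 for ES over mGS, but one of -0.91 for knockout over GS. 1425923_at stayed near the floor, between 80.3 in mGS cells and 119.9 in knockout GS cells. With the mean of all 3 probe sets the Mycn log2 difference was 0.83 for mGS over GS, under 2-fold, and 1.05 for ES over GS.

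**Figure D1:**
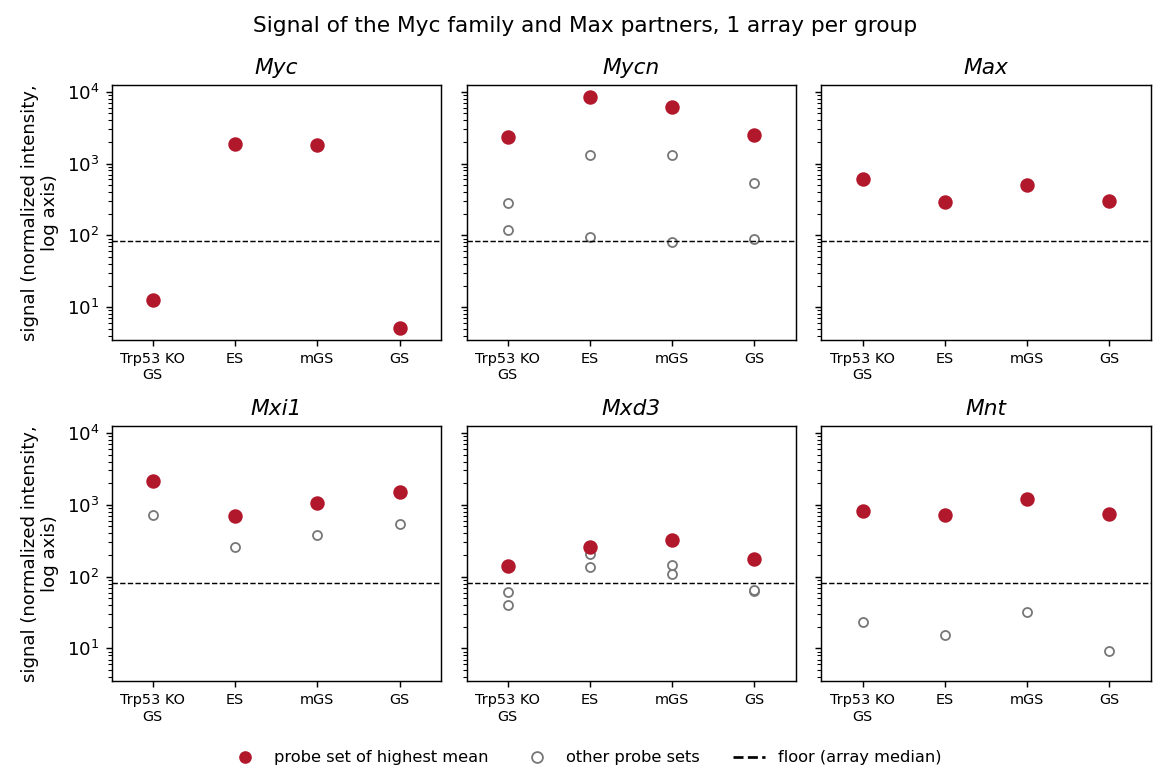
Signal of each of the 6 genes on the 4 arrays (log axis, normalized intensity), with the probe set of highest mean filled, other probe sets open and the floor of 82.7 dashed. Myc lay at 1850 and 1835 in ES and mGS cells and under the floor on both arrays of GS cells, while Mycn, Max, Mxi1, Mxd3 and Mnt were above the floor on all 4 arrays with their filled probe set.

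Max, the shared partner, was measured by 1 probe set, 1423501_at on chromosome 12. It read 603 in knockout GS cells, 294 in ES cells, 496 in mGS cells and 297 in GS cells. High and low values thus did not divide by medium, since each medium held 1 higher and 1 lower array. Max was 2.03-fold higher in knockout GS cells than in GS cells, and 9.27% of the 11623 genes compared were as far or farther in that direction. It was just past the 2-fold threshold there, and with arrays centred on their medians the log2 difference was 0.90, and 0.95 with a pseudocount of 32. In that comparison 9 of 12 proliferation genes were at least 2-fold lower in knockout GS cells, against 6.93% of all genes. The hybridisation control bioC read 602 in knockout GS cells, against 3066 in GS cells. The part of either in the Max value was not tested. Max was 1.67-fold higher in mGS cells than in GS cells and 1.69-fold lower in ES cells than in mGS cells, both under the threshold, and ES and GS differed by -0.01 on the log2 scale. Set against the knockout in place of control GS cells, a setting chosen after seeing the data, the log2 difference of mGS was -0.28 and that of ES was -1.04.

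Among the repressive partners, Mxi1 read lower on both arrays of ES medium, by a narrow gap. Its leading probe set, 1450376_at on chromosome 19, read 2136 in knockout GS cells, 705 in ES cells, 1073 in mGS cells and 1522 in GS cells. Both arrays of ES medium were thus lower than both arrays of GS medium, by 1.42-fold between the nearest pair. That gap was under 2-fold and close to the spread between probe sets. The share of all genes divided in this way at that size was not counted. The second probe set, 1425732_a_at, gave the same order, with 718 in knockout GS cells, 259 in ES cells, 381 in mGS cells and 541 in GS cells. Mxi1 was 2.16-fold lower in ES cells than in GS cells by the leading probe set and 2.09-fold lower by the other, and 14.8% of the 12107 genes compared were as low or lower than the leading value. The log2 differences of -0.51 for mGS over GS, -0.61 for ES over mGS and 0.49 for knockout over GS were all under 2-fold and close to the spread between probe sets.

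Mxd3, a Max partner known in the mouse from cycling progenitor cells, was dim throughout. Its leading probe set, 1438847_at on chromosome 13, read 139 in knockout GS cells, 261 in ES cells, 322 in mGS cells and 173 in GS cells. The ES-medium arrays were both higher than the GS-medium arrays, by 0.59 on the log2 scale between the nearest pair. That gap was close to the spread between probe sets, and for it too the share of all genes was not counted. No difference between arrays of the main comparisons reached 2-fold, with 1.86-fold for mGS over GS as the widest by this probe set. Past 2-fold were mGS over the knockout in place of GS, at a log2 difference of 1.21, and ES over GS with the mean of probe sets, at 1.13. That mean was taken before the floor was applied. It held GS signals under the floor, 62.1 by 1422970_at and 66.0 by 1448878_at. The other probe sets, 1422970_at and 1448878_at, were above the floor in ES cells, at 138 and 207, and in mGS cells, at 109 and 144, and under it in knockout and control GS cells. By 1448878_at, ES cells were at least 2.51-fold above GS cells. Both probe sets placed ES above mGS and the leading one placed ES below mGS, so the order of ES and mGS was not settled. The log2 difference of Mxd3 for knockout over GS was -0.32, while the median of the 12 proliferation genes was -2.44.

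Mnt, the most widely expressed of the repressive partners as known from mouse tissues, varied least of the leading probe sets. 1418192_at on chromosome 11 read 806 in knockout GS cells, 709 in ES cells, 1199 in mGS cells and 754 in GS cells. The mGS array was the high one and the other 3 lay close together. Mnt was 1.69-fold lower in ES cells than in mGS cells, with 8.99% of the 11816 genes as low or lower, and 1.59-fold higher in mGS cells than in GS cells. The other genes of chromosome 11, besides Mnt and Mlx, had a median log2 difference of 0.19 for mGS over GS over 1040 genes and of -0.11 for ES over GS over 1004 genes. For ES over mGS their median was -0.35 over 999 genes, and 19.1% of them were at or under the Mnt value of -0.76. The part of chromosome 11 in the Mnt and Mlx values was not tested. The second Mnt probe set, 1418193_at, was under the floor on all 4 arrays.

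Counted over the 6 members, 2 of 6 passed 2-fold for mGS over GS, both higher, where 15.3% of all genes compared were higher and 16.5% lower. For ES over mGS no member reached 2-fold, where 6.90% of all genes were higher and 5.13% lower. For ES over GS 2 members were higher and 1 lower, where 17.4% of all genes were higher and 17.2% lower. For knockout over GS 1 of the 5 members with a difference, Max, was higher and none lower, where 9.77% of all genes were higher and 6.93% lower. With so few members these counts lie near the background and say nothing particular about the family. At least 2-fold in all 4 pairs of an ES-medium with a GS-medium array were Myc and Mycn, both higher in ES medium, where 7.65% of 12897 genes were higher and 8.38% lower in all 4. These comparisons share arrays and are not independent. The split of all genes in the knockout comparison, 1135 higher and 805 lower, was 838 higher and 1072 lower with arrays centred on their medians, which moved the median of all genes by -0.16.

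**Figure D2:**
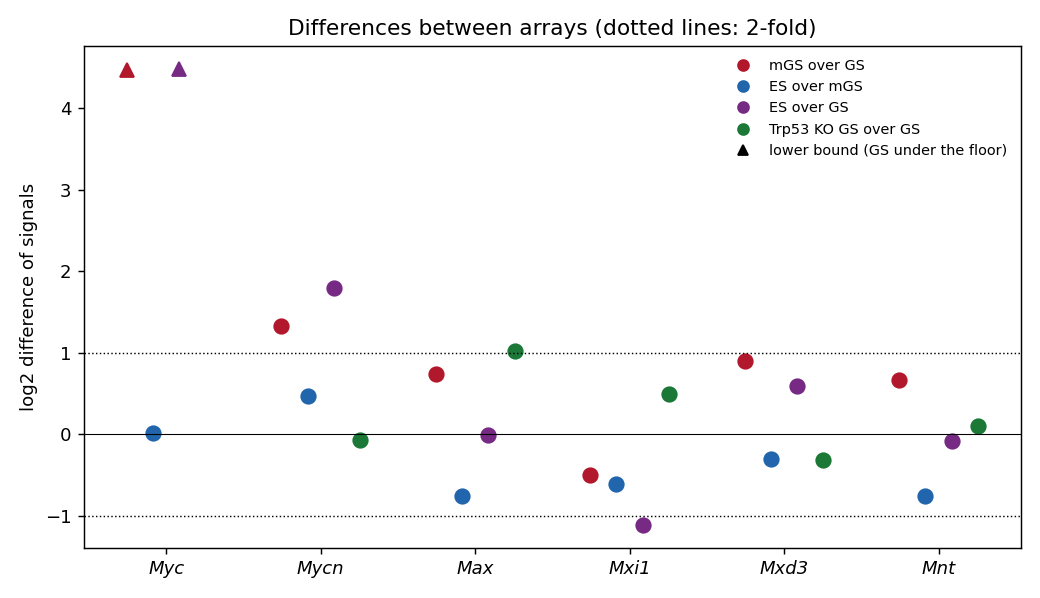
Log2 differences of the leading probe sets of the 6 genes in the 4 comparisons, with triangles for lower bounds and dotted lines at 2-fold. Myc stood at bounds of 4.47 and 4.48 for mGS and ES over GS and at 0.01 for ES over mGS, and Max at 1.02 for knockout over GS.

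The remaining genes of the network included 7 that were measured. Mxd4, a further Mad-type repressor partner of Max, read 379 in knockout GS cells, 228 in ES cells, 29.7 in mGS cells and 761 in GS cells. It was at least 9.21-fold lower in mGS cells than in GS cells, at least 2.76-fold higher in ES cells than in mGS cells, and 2.01-fold lower in knockout GS cells than in GS cells. Of its other 3 probe sets, 1422574_at and 1434379_at were also highest in GS cells, at 212 and 173, while 1422575_at stayed between 65.3 and 106. In ES and mGS cells 1422574_at and 1434379_at were under the floor, so they gave no difference between those cells. In knockout GS cells they read 115 and 125, less than 2-fold lower than in GS cells. Mxd1, another Mad-type repressor, read 154 in knockout GS cells, was under the floor in ES and mGS cells and read 112 in GS cells. Its log2 bound of -0.44 for mGS over GS was under 2-fold. Mycl, the third Myc family gene, read 288 in knockout GS cells, 239 in ES cells, 218 in mGS cells and 149.6 in GS cells, with no difference of 2-fold by this leading probe set. Its other probe sets, 1422087_at and 1422088_at, read 173 and 171 in knockout GS cells and were under the floor in GS cells, which gave at least 2.09-fold and 2.07-fold for knockout over GS. Mga, a Max partner of a noncanonical Polycomb complex, read between 2186 in mGS cells and 3285 in knockout GS cells and also stayed within 2-fold.

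Mlx is the Max-like partner of the glucose-responsive factors Mlxip and Mlxipl. It read 671 in knockout GS cells, 868 in ES cells, 1639 in mGS cells and 778 in GS cells. The mGS array stood above the other 3, as it did for Mnt, and Mlx was 2.11-fold higher in mGS cells than in GS cells. Its second probe set also was highest in mGS cells, at 1055, against 375 in GS cells. Mlx lies on chromosome 11 as well, and 12.2% of the genes there were at or under its log2 difference of -0.92 for ES over mGS. Mlxipl read 250 in knockout GS cells, 13.7 in ES cells, 125 in mGS cells and 426 in GS cells, so that it was 3.41-fold lower in mGS cells and at least 5.15-fold lower in ES cells than in GS cells. Mlxip stayed within 2-fold, between 454 in mGS cells and 883 in knockout GS cells.

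**Figure D3:**
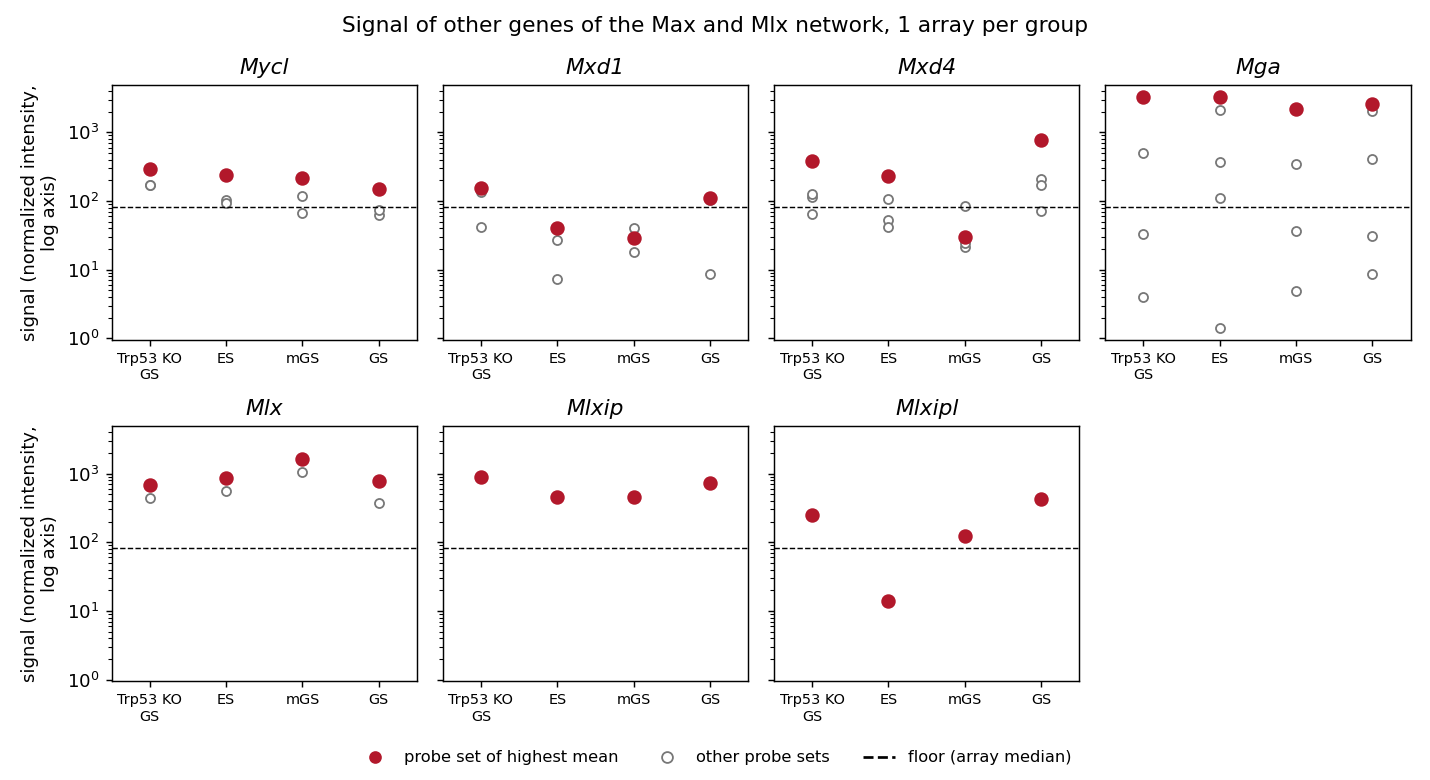
Signal of 7 further genes of the Max and Mlx network on the 4 arrays (log axis, normalized intensity), with the probe set of highest mean filled, other probe sets open and the floor of 82.7 dashed. Mxd4 had its highest value, 761, in GS cells and its lowest, 29.7, in mGS cells, and Mlx its highest, 1639, in mGS cells.

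Of 13 cofactor genes measured, 1 was at least 2-fold higher and 3 lower in mGS cells than in GS cells, with a median log2 difference of -0.46 beside -0.04 for all genes. Of all genes 15.3% were higher and 16.5% lower there, so these counts are not far from the background. Trrap, the scaffold that Myc recruits with histone acetyltransferases, read 5502 in knockout GS cells, 1373 in ES cells, 2097 in mGS cells and 4336 in GS cells. It was 2.07-fold lower in mGS cells and 3.16-fold lower in ES cells than in GS cells. Ep400, a subunit with Trrap of the TIP60 acetyltransferase complex, was 2.39-fold and 2.67-fold lower in mGS and ES cells than in GS cells, and the deacetylase gene Hdac2 was 2.13-fold lower in mGS cells. Ruvbl2, an ATPase of that complex, was 2.65-fold higher in mGS cells and 2.11-fold higher in ES cells. Zbtb17, the Miz1 protein through which Myc represses, was 2.10-fold lower in ES cells than in GS cells. No cofactor gene reached 2-fold for ES over mGS or for knockout over GS. There 6.90% and 9.77% of all genes were higher and 5.13% and 6.93% lower.

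Genes of Myc protein turnover, such as the ubiquitin ligase gene Fbxw7 and the kinase gene Gsk3b, stayed within 2-fold for mGS over GS, ES over mGS and ES over GS in all 7 measured. In these comparisons 15.3%, 6.90% and 17.4% of all genes were higher and 16.5%, 5.13% and 17.2% lower. Most genes thus stayed within 2-fold as well. For knockout over GS 1 turnover gene was higher and 1 lower, where 9.77% of all genes were higher and 6.93% lower. Usp28, a deubiquitinase of Myc, was 2.26-fold higher in knockout GS cells, at 4520 against 1998 in GS cells. Aurka, the mitotic kinase that stabilises the Mycn protein, was 4.08-fold lower, at 850.2 against 3468, beside the 9 of 12 proliferation genes that were lower there.

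Of 39 measured genes in 4 lists of known Myc targets, 8 were at least 2-fold higher and 2 lower in mGS cells than in GS cells, with a median log2 difference of 0.43 beside -0.04 for all genes. That is beside 15.3% of all genes higher and 16.5% lower, and the list was not tested against them. For ES over GS the counts were also 8 and 2, beside 17.4% of all genes higher and 17.2% lower, and the median was 0.31. In ribosome biogenesis 3 of 13 were higher and none lower, with a median of 0.47. They were Wdr12, 3.66-fold, Nop58, 2.30-fold, and Nolc1, 2.11-fold, while the abundant nucleolar genes Ncl and Npm1 had log2 differences of 0.41 and 0.07. In metabolism 4 of 14 were higher and 1 was lower, and the median was 0.69. Odc1, which makes putrescine as the limiting step of polyamine synthesis, read 2510 in knockout GS cells, 17769 in ES cells, 13773 in mGS cells and 2770 in GS cells. It was thus 4.97-fold higher in mGS cells than in GS cells. Srm, the next enzyme of polyamine synthesis, was 6.53-fold higher, the lactate dehydrogenase gene Ldha 6.51-fold and the purine synthesis gene Gart 3.01-fold. Cad, of pyrimidine synthesis, went the other way and was 2.74-fold lower.

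Targets of translation and folding showed no difference of 2-fold in any of the 4 comparisons among 5 measured. Of all genes, 15.3% were higher and 16.5% lower for mGS over GS, and 6.90% and 5.13% for ES over mGS. The shares were 17.4% and 17.2% for ES over GS, and 9.77% and 6.93% for knockout over GS. Of 7 cell cycle targets, 1 was higher and 1 lower for mGS over GS, where 15.3% of all genes were higher and 16.5% lower. Ccne1, the cyclin E1 gene, was under the floor in knockout GS cells and read 5729 in ES cells, 4842 in mGS cells and 431 in GS cells. It was 11.2-fold higher in mGS cells. Ccnd2, the cyclin D2 gene, read 6164 in knockout GS cells, 3825 in ES cells, 488 in mGS cells and 11311 in GS cells, and was 23.2-fold lower. For ES over GS the phosphatase gene Cdc25a was 2.56-fold higher and E2f1, of the transcription factors of S phase entry, 2.05-fold lower. Among 5 genes known to be repressed by Myc, 1 was higher for mGS over GS and none was lower by 2-fold, with a median of 0.32 beside -0.04 for all genes. For ES over GS 4 were higher and none lower, with a median of 1.36 beside -0.03, where 17.4% of all genes were higher and the fibroblast markers summed to 26461 in ES cells, against 864 in GS cells. Gadd45a, a stress response gene, was 4.80-fold higher in mGS cells and 5.08-fold in ES cells than in GS cells. The CDK inhibitor genes Cdkn2b and Cdkn1a were 5.67-fold and 2.92-fold higher in ES cells than in mGS cells, beside the higher fibroblast markers of the ES array. The part of fibroblasts in these values was not tested. For knockout over GS the CDK inhibitor gene Cdkn1b and the stress gene Ndrg1 were 4.84-fold and 2.96-fold higher.

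Between ES and mGS, 1 of the 39 targets, Ccnd2, reached 2-fold, 7.84-fold higher in ES cells, where 6.90% of all genes were higher and 5.13% lower. The median was -0.06 beside 0.00 for all genes. For knockout over GS 1 was higher and 2 lower, where 9.77% of all genes were higher and 6.93% lower. The median there was -0.09 beside 0.07 for all genes. The amino acid transporter gene Slc7a5 was 2.20-fold higher, and the hexokinase gene Hk2 was 4.09-fold and Ccne1 at least 5.21-fold lower in knockout GS cells. The lists were chosen from textbook knowledge with earlier results of these data known, and a target's signal does not measure the activity of Myc.

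**Figure D4:**
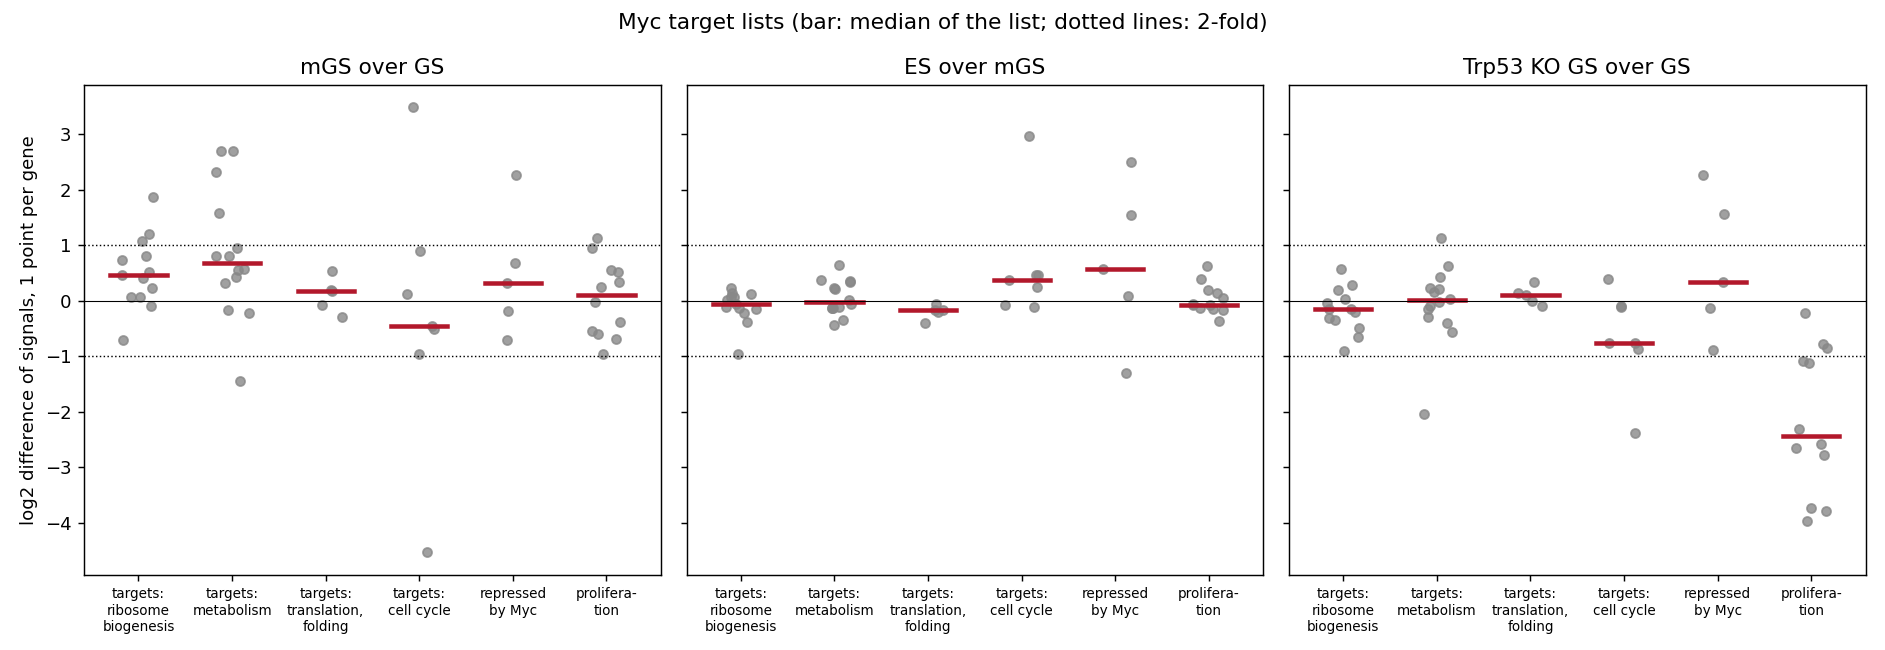
Log2 differences of single genes (grey points) and list medians (red bars) for 4 lists of Myc targets, genes repressed by Myc and proliferation genes in 3 comparisons, with dotted lines at 2-fold. For mGS over GS the metabolism median was 0.69 and the ribosome biogenesis median 0.47, and for knockout over GS the proliferation median was -2.44.

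Profiles most like those of the members were sought among 12316 named genes, by the root mean square distance of the log2 values over the 4 arrays, each profile centred on its own mean. Mnt was left out because its values spanned less than 2-fold. Values under the floor entered at the floor, so Myc has no profile among its 2 GS-medium arrays, and the distances of genes near Myc have no order. Nearest to it came Ltbp4, under the floor on the same 2 arrays, Tfap2c, the gene of transcription factor AP-2 gamma, under it in GS cells, and Ckb. For Mycn they were Cdk6, the gene of a G1 cyclin-dependent kinase, Slc23a1 and Aif1l, at distances of 0.023, 0.027 and 0.031, with Slc23a1 under the floor on both GS-medium arrays. Cdk6 read 401 in knockout GS cells, 1400 in ES cells, 1016 in mGS cells and 410 in GS cells. Max had Gdpd5, Tmem39a and Cdkl4 nearest, at 0.027, 0.048 and 0.052, but Gdpd5 and Cdkl4 were under the floor in ES and GS cells, so their equal values there are set by the floor. Mxi1 had Dnajc3, the gene of an endoplasmic reticulum chaperone, Pigh and Btbd9, at 0.012, 0.027 and 0.030, and Dnajc3 read 1463 in knockout GS cells, 488 in ES cells, 751 in mGS cells and 1062 in GS cells. Mxd3 had Saal1, Dkc1 and Nup43, at 0.025, 0.041 and 0.043, and Dkc1, of the box H/ACA ribonucleoproteins, is one of the listed ribosome biogenesis targets. With 4 arrays in 2 media, nearness describes these values only.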

How the data were processed

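The labels' protocols name Trizol for RNA extraction and the Affymetrix procedure for biotin labelling of cRNA. The values deposited by the authors are linear intensities, 1 per probe set and array, and each array's mean was 500.003 once the outer 2% at each end were trimmed. Not given in the sources used here are the summarising software and its version. The table held 45101 probe sets, and 64 controls were left out. Log2 intensities of the remaining 45037 were quantile normalized over the 4 arrays. Annotation of the platform gave 1 symbol for 34945 probe sets and several for 932, which were left out, and 9160 used probe sets were unnamed. The gene table of GRCm38.p6 held the gene identifiers of 34741 named probe sets. A gene took its probe set of highest mean. Values under the array median, 6.37 on the log2 scale, were raised to it, and 2 values both under it gave no difference.

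No test was possible with 1 array per group. How few the arrays are sets the precision. The members, the 12 further gene lists (103 of 109 genes measured) and the settings were chosen with earlier results of these data known. All members were named, and from each list the genes at least 2-fold apart in a comparison, at most 4 per direction, all genes of the Max and Mlx network, and the 3 genes of nearest profile per member. Genes shown beside these for their level were chosen after their values were seen. Alternatives were the deposited values, centring on medians, the mean of probe sets, leaving out probe sets ending in _s_at or _x_at, keeping probe sets of several symbols, a floor at the 30th percentile or at the 60th, a pseudocount of 32 and no floor at all. The steps were tested on simulated data, with planted differences larger than 2-fold in genes well above the floor. That test does not cover differences near 2-fold or values near the floor. Python 3.11.15 with numpy 2.4.6, pandas 2.3.3 and matplotlib 3.10.9 was used.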

Additional observations from a re-analysis of the deposited data

Results flagged for a closer look

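The added poly-A control RNA dap, which enters no comparison of genes, read 3055 in knockout GS cells, 2545 in ES cells and 255 in mGS cells, against 271 in GS cells, so that knockout GS and ES cells stood above GS cells.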

How the results depend on the processing

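Of 219 member values under an alternative, 205 moved by less than the spread between probe sets and 14 by more, and none that was at least 2-fold changed sign. The count of members at least 2-fold apart for knockout over GS was 1, against 0 with arrays centred on medians or with a pseudocount of 32, and 2 without the floor, where Myc joined Max on signals far under the floor. The count divided by medium was 2, against 1 with the mean of probe sets, which left Myc. The other counts stayed within 1.5 times under every alternative run. That does not fix the members: with the mean of probe sets Mnt, at 1.23, took the place of Mycn for mGS over GS, since its second probe set is under the floor. The Myc bound for mGS over GS ranged between 3.58 with the floor at the 60th percentile and 5.93 at the 30th, and the difference was 8.48 without a floor. Over all genes the counts without the floor were 3999 higher and 4021 lower for mGS over GS, 2747 and 2574 for ES over mGS, 4168 and 4100 for ES over GS, and 3166 and 2597 for knockout over GS. With the floor at the 30th percentile they were 1397 and 1167 for ES over mGS and 1759 and 1174 for knockout over GS, and with the pseudocount 1221 and 975 for ES over mGS. Centring moved the median of all genes by -0.11 for ES over mGS. No paired analysis was possible because each group has 1 array. Array signals near or under the floor limit Myc in GS cells, Mxd3 and the dim Mycn probe set.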
